A study of Mus musculus with 8 samples.

Results

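Cycling nuclei of mouse liver were chosen by 6 genes of dividing cells: a barcode with at least 300 detected genes had to carry at least 3 unique molecular identifiers (UMIs, each marking 1 captured RNA molecule) summed over Mki67, Top2a, Kif15, Kif23, Kif4 and Diaph3, from at least 2 of these genes. The rule found 2163 of 79446 nuclei in 8 mice. RD tumour 1, a library with exactly 20000 barcodes, held 1411 of them and is reported apart: the other 7 mice held 752 of 59446 nuclei. The 6 genes therefore describe the choice and support nothing. Nuclei of every cell class could enter, and their classes are described below from genes that the rule did not use.

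Single-nucleus RNA sequencing was done on snap-frozen livers of 8 male DIAMOND mice, described by the labels as 129A1/SvIm and C57BL/6J cross mice, with 1 library per mouse. All 8 first received a Western diet (WD) rich in fat, with fructose and glucose in the water. In the WD tumour group (n = 3 mice) this lasted 48 weeks and liver cancer developed. In the RD tumour group (n = 2 mice, with liver cancer) and the RD no tumour group (n = 3 mice, with no cancer detected) the diet was switched to standard chow after 36 weeks. No group stayed on chow throughout. Whether tumour tissue was in the piece taken from a liver is not stated, and the statements on age at sampling disagree.

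Dividing cells copy their DNA in S phase, condense and attach chromosomes to the spindle in mitosis, and split by cytokinesis. Most genes needed for the later steps are silent in resting cells. They are switched on together when the DREAM complex leaves their promoters and the MuvB, B-Myb and FoxM1 factors act there, often through a short element called the cell cycle genes homology region (CHR) and through CCAAT boxes bound by NF-Y. The adult liver is mostly quiescent. Red and white blood cell precursors divide often, and the liver is a blood-forming organ before birth.

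Of the 6 rule genes, Mki67 encodes Ki-67, which coats mitotic chromosomes; it lies at chr7:135689784-135716361 of mouse build GRCm38 (mm10), minus strand. Top2a, at chr11:98992943-99024189 on the minus strand, encodes the topoisomerase that untangles sister DNA. Kif15, Kif23 and Kif4 encode kinesin motors of the spindle and the midbody, and Diaph3 encodes a formin that builds actin filaments. The windows below hold the 150 bases before the RefSeq start of 3 rule genes (GRCm38.p6). All 6 genes chose the nuclei, and the 3 shown are those whose window held the CHR letters. They are Mki67 at chr7:135716380-135716529 (minus strand), Top2a at chr11:99024190-99024339 (minus strand) and Kif15 at chr9:122950931-122951080 (plus strand), each printed 5′ to 3′ on the strand of the gene. Capitals mark the CHR letters TTTGAA or their reverse complement TTCAAA, and the CCAAT box or its reverse complement ATTGG.
Mki67: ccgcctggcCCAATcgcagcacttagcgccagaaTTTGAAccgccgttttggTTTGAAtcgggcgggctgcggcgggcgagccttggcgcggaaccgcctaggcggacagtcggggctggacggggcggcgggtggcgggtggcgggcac
Top2a: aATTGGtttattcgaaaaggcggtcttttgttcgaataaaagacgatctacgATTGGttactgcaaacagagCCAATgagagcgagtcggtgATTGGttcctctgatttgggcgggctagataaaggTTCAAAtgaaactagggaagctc
Kif15: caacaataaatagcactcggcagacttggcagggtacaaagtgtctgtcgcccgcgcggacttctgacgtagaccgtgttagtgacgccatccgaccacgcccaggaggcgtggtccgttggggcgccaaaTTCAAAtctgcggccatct
The CHR letters were found in 3 of the 6 windows and the CCAAT letters in 5 of 6, all but Kif15. Over 32851 promoter windows of the same length, 9.07% held the CHR letters and 24.5% the CCAAT letters, on either strand. A match is a description of letters and not a shown binding site.

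Library totals ranged from 17948627 to 34363108 UMIs. Cycling nuclei were deeper than other nuclei in each of the 8 mice: their median was 2539 against 1251 UMIs in RD tumour 1 and 9804 against 1118.5 in RD tumour 2. Between 8 and 62 barcodes were shared by each of the 28 pairs of libraries, and no shared barcode was cycling in both. Scrublet, which calls droplets that look like 2 cells, marked 15.2% of the cycling nuclei of RD tumour 1 (16% of all its nuclei), 15.96% in RD no tumour 1 (8.22% of all) and 4.69% in WD tumour 2 (5.66% of all). In the other 5 mice it marked 0 to 5 cycling nuclei.

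The share of cycling nuclei ranged from 0.0789% to 7.06% between livers, and each group held both high and low livers. RD tumour 1 had 7.06% (95% exact binomial interval 6.704% to 7.42%, for counting error only) and RD tumour 2 had 0.231% (0.148% to 0.344%), or 24 of 10376 nuclei. RD no tumour 1 had 3.66%, or 376 of 10275, RD no tumour 2 had 0.694%, or 42 of 6048, and RD no tumour 3 had 0.386%, or 40 of 10351. WD tumour 2 had 3.62%, or 256 of 7068, while WD tumour 1 and WD tumour 3 had 7 cycling nuclei each, 0.108% of 6457 and 0.0789% of 8871. In each group 1 liver thus stood above 3% and every other liver below 0.7%. Among the 752 nuclei outside RD tumour 1, 84.0% came from RD no tumour 1 and WD tumour 2.

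**Figure D1:**
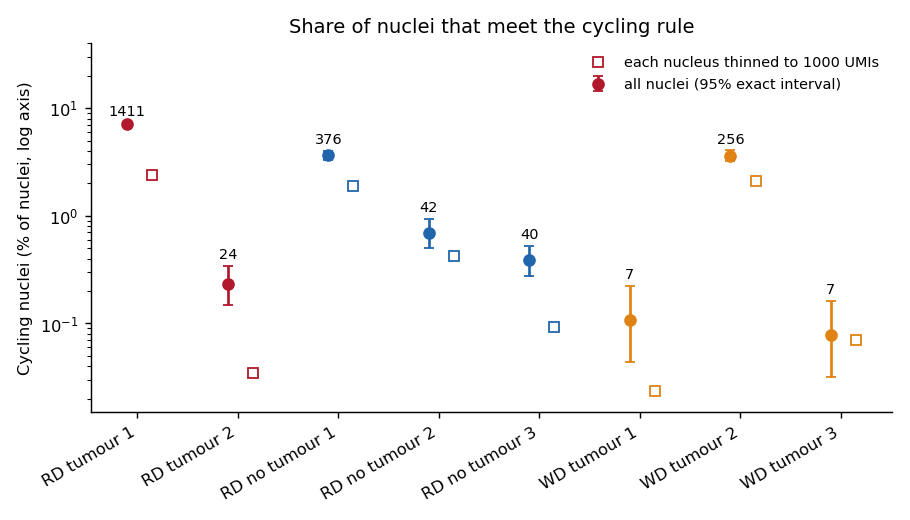
Share of nuclei that met the cycling rule in each mouse, in percent on a log axis. Colours are the 3 groups, filled points are all nuclei with their 95% exact binomial interval and the number of cycling nuclei above; open squares are the share after each nucleus was thinned to 1000 UMIs, with shallower nuclei left out. RD tumour 1, RD no tumour 1 and WD tumour 2 stand above 3% and the other 5 mice below 0.7%.

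The mean share was 2.22 ± 3.096% in tumour-bearing mice (SD, n = 5) and 1.58 ± 1.81% in mice without tumour (SD, n = 3). The difference in mean log2 share went the other way, at -0.85, and did not pass the test (two-sided exact permutation test, p = 0.679). WD mice averaged 1.27 ± 2.04% (SD, n = 3) and mice switched to chow 2.41 ± 2.96% (SD, n = 5), a log2 difference of -1.81 (exact permutation p = 0.357, and 0.679 after adjustment over 6 share tests). Thinned to 1000 UMIs, the count of cycling nuclei was 339 in RD tumour 1, 2 in RD tumour 2, while it was 160, 24 and 7 in the mice without tumour and 1, 102 and 4 in those kept on WD. The thinned shares were 2.39%, 0.0348%, 1.91%, 0.426%, 0.0929%, 0.0236%, 2.11% and 0.0707% in the same order, with log2 differences of -1.11 for tumour against none (exact permutation p = 0.679) and -1.25 for WD against chow (exact permutation p = 0.536). The direction of the first difference rests on 1 liver: without RD no tumour 1 it was 0.09 on the log2 scale. At 1000 UMIs the second was 0.09 without WD tumour 1.

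RD tumour 1 stood apart in what its nuclei outside the rule held. The 6 rule genes made up 315 CPM (UMIs of a gene per 1000000 UMIs) in the nuclei of this library that did not meet the rule, against 7.45 to 75.6 CPM in the other 7 mice, and 39.2% of those nuclei carried a UMI of a rule gene, against 1.90% to 18.6%. Of its cycling nuclei 46.5% had exactly 3 UMIs, the least the rule allows, against 14.6% in RD no tumour 1 and 16.4% in WD tumour 2. That share was 42.9% (3 of 7) in WD tumour 1, 33.3% (8 of 24) in RD tumour 2 and 2.38% to 14.3% in the other 3 mice. Just outside the rule, with 2 UMIs from 2 genes, lay 1539 nuclei of RD tumour 1, more than the 1411 inside it. The same count was 83 in RD no tumour 1 and 98 in WD tumour 2. The share of the rule genes' UMIs that fell in cycling nuclei was 40.8% in RD tumour 1, within the range of the other mice: it was 71.2%, 64.3% and 48.6% in the livers without tumour, 67.1% in WD tumour 2, and 22.1% to 25.9% in the 3 mice with at most 24 cycling nuclei. What part free RNA had in this library was not tested.

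Over the cycling nuclei of all 8 mice, RD tumour 1 included, Top2a gave 26.6% of the rule's UMIs, Mki67 20.4% and Diaph3 20.2%, and the other 3 genes gave less. The order differed between mice. In RD tumour 1 Mki67 gave 1404 UMIs, Top2a 1342 and Diaph3 1223. Top2a gave 1048, Diaph3 515 and Mki67 466 in RD no tumour 1, and 867, 760 and 674 in WD tumour 2. In RD no tumour 1 Top2a reached 596 CPM in cycling nuclei and 7.23 CPM in the others, and 89.6% of cycling nuclei had a Top2a UMI. Its level in cycling nuclei was 285 CPM in RD tumour 1, 85.5 in RD tumour 2, 734 in RD no tumour 2, 143 in RD no tumour 3, 331 in WD tumour 1, 353 in WD tumour 2 and 373 in WD tumour 3. Mki67 ranged from 48.9 CPM in RD tumour 2 to 382 CPM in RD no tumour 2. In RD tumour 2 and RD no tumour 3, which had the lowest Top2a levels, 50% and 25% of cycling nuclei had over 10000 UMIs. WD tumour 2 had 22.7% such nuclei and no low Top2a level, and the other 5 mice had 3.69% to 14.3%. The rule asks for a number of UMIs, so a deep nucleus meets it at a lower concentration.

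Other genes of cell division, which the rule did not name, were higher in cycling nuclei, and list medians were larger for mitosis than for origin licensing. Since the rule made this contrast, it is described without a test, on the log2(CPM + 1) scale of counts summed per mouse. A gene was counted as higher when its median difference over 8 mice was at least 1 and it was higher in at least 6 mice. Of 16771 genes with at least 10 UMIs in cycling nuclei, 553 (3.30%) were counted as higher and 370 (2.21%) as lower, and the median gene differed by 0.00. This filter used cycling nuclei only. Genes with few or no UMIs there could not be counted as lower, so the higher and lower counts are not on equal terms.

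For origin licensing, in which the MCM helicase is loaded and origins are fired, 11 of 19 listed genes were higher (median log2 difference 1.19). Dtl, the substrate receptor of a ubiquitin ligase that clears licensing factors, led at 3.55, Cdc6, which loads MCM, followed at 3.30, and the helicase subunit Mcm4 was lowest at 0.14. For DNA synthesis 14 of 23 were higher (median 1.55), with the replication checkpoint adaptor Clspn at 3.82, the polymerase subunits Pole at 2.88 and Pola1 at 2.53, and the ribonucleotide reductase subunit Rrm2 at 2.43. For repair at replication forks 13 of 14 were higher (median 2.01), led by Bard1, the partner of BRCA1, at 3.58 and the end-joining polymerase Polq at 3.32.

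For mitotic kinases and cyclins 20 of 22 were higher (median 2.32), with Aurkb at 3.37 and the checkpoint kinase Bub1 at 3.34, and Mastl lowest at 0.18. For the kinetochore, the chromosome's attachment plate, 17 of 18 were higher (median 3.17), led by the motor Cenpe at 4.15, Cenpf at 4.10 and Ndc80 at 3.88. All 10 condensin and chromosome genes were higher (median 2.52), led by Esco2, which locks sister chromatids together, at 4.58. All 17 kinesin and spindle genes were higher, with the largest list median, 3.51. Kif11, the motor that pushes spindle poles apart, was at 4.62, the spindle proteins Spag5 and Ckap2l at 4.22 and 4.21, and Prc1, which bundles the midzone microtubules, at 4.13. All 7 cytokinesis genes were higher (median 3.06), led by Anln, the scaffold of the contractile ring, at 4.04.

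Outside the rule, the gene with the largest difference was Neil3, a DNA glycosylase that acts on damaged bases during replication. Its level in cycling and in other nuclei was 42.0 and 11 CPM in RD tumour 1, 22.4 and 0.449 in RD tumour 2, 155 and 2.26 in RD no tumour 1, and 201 and 0.0445 in RD no tumour 2. It was 44.6 and 0.284 CPM in RD no tumour 3, 127 and 0.279 in WD tumour 1, 109 and 2.64 in WD tumour 2, and 149 and 0.0815 in WD tumour 3. Every mouse was higher in cycling nuclei, by a median of 5.36 on the log2 scale, and RD tumour 1 had both the highest level outside cycling nuclei and the smallest difference, 1.84. The 15 leading genes also held Depdc1b, Depdc1a, Kntc1 (a part of the kinetochore checkpoint complex), Tpx2 (an activator of Aurora A) and the noncoding RNA Lockd.

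Genes that start or end the cycle differed less. None of 10 cycle entry genes was counted as higher (median 0.27), with Ccnd2, a D-type cyclin, at 0.85 and higher in 8 of 8 mice. Of 14 genes of cycle exit 3 were higher (median 0.11): Rbl1 at 2.69, Cdkn2c at 1.36 and Rb1 at 1.27. Rbl1 and Rb1 encode pocket proteins that restrain E2F, and Cdkn2c encodes an inhibitor of the D-cyclin kinases. None of the 10 measured fetal and liver tumour markers was counted as higher (median -0.09).

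**Figure D2:**
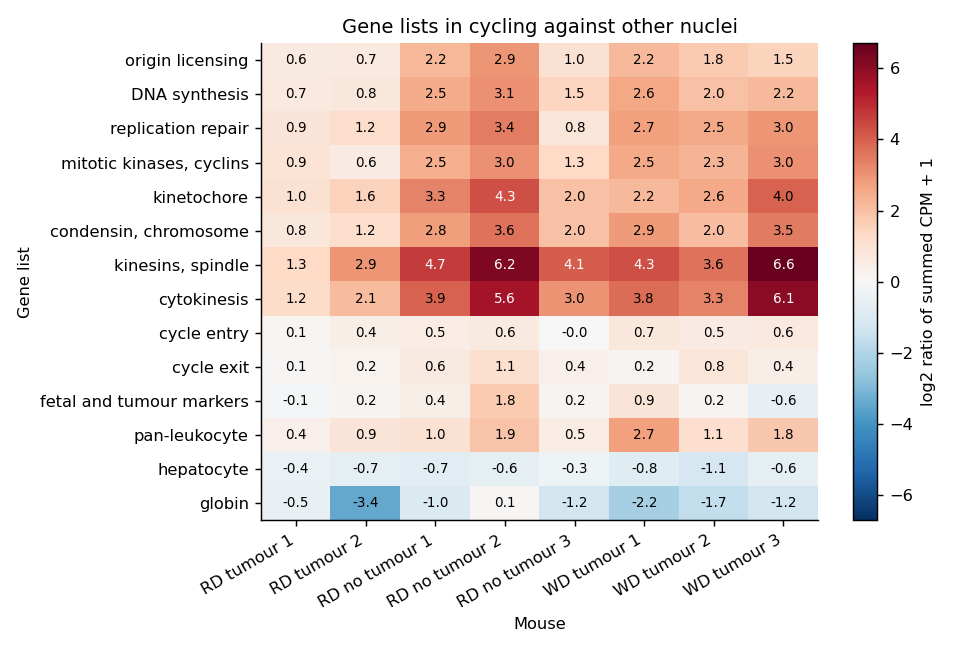
Difference between cycling and other nuclei of each mouse for summed gene lists, as the log2 ratio of CPM + 1; rows are lists, columns are mice, and the colour and the printed value give the same number. Spindle and cytokinesis genes are raised most, up to 6.6 in WD tumour 3, a value from 7 cycling nuclei. RD tumour 1 has the smallest spindle value, 1.3.

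The lists show how unevenly the rule worked. Summed spindle genes were higher in cycling nuclei by 1.31 in RD tumour 1, 2.94 in RD tumour 2, 4.67, 6.24 and 4.08 in the 3 livers without tumour, and 4.30, 3.65 and 6.63 in the livers kept on WD. Cytokinesis genes ranged from 1.22 to 6.07, the highest in WD tumour 3, and licensing genes from 0.58 to 2.93, the highest in RD no tumour 2. The WD tumour 3 values rest on 7 cycling nuclei, with 72 spindle and 34 cytokinesis UMIs. RD tumour 1 had the lowest value of the spindle, cytokinesis and licensing lists. Over the other 7 mice the list medians of single genes were larger, at 1.91 for DNA synthesis, 2.61 for mitotic kinases and cyclins, 3.40 for the kinetochore and 3.71 for the spindle.

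Among the lineage genes, Ptprc was higher and Alb lower in the cycling nuclei of every mouse. Ptprc, which encodes the leukocyte surface protein CD45, was higher in cycling than in other nuclei in 8 of 8 mice, by a median of 0.93 on the log2 scale. Its levels were 839 and 643 CPM in RD tumour 1, 393 and 234 in RD tumour 2, 687 and 400 in RD no tumour 1, 748 and 143 in RD no tumour 2, and 182 and 108 in RD no tumour 3. In the WD tumour mice they were 764 and 124, 921 and 433, and 423 and 125 CPM. Alb, which encodes the hepatocyte's main secreted protein, was lower in 8 of 8 mice (median -0.74), at 2629 to 8677 CPM in cycling and 4435 to 14675 CPM in other nuclei. Alb UMIs were present in at least 99.5% of cycling and 99.7% of other nuclei of every mouse, so the share of nuclei with an Alb UMI does not separate cell classes here. The 15 hepatocyte genes had a median of -0.57, and their summed level was lower in cycling nuclei in 8 of 8 mice. Of 7 genes shared by most leukocytes 4 were counted as higher (median 1.14), among them Ikzf1, a transcription factor of lymphoid development, at 1.44.

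Stab2, a scavenger receptor of sinusoidal endothelium, differed by a median of 0.23 (higher in 7 of 8 mice), with 210 to 484 CPM in cycling and 169 to 390 CPM in other nuclei. Reln, a secreted protein of stellate cells, had a median of -0.18 (higher in 4 of 8 mice) and no UMI in the 7 cycling nuclei of WD tumour 1. Hbb-bs, a beta globin gene, was lower in 7 of 8 mice (median -1.27) and about equal in RD no tumour 2, at 2612 and 2583 CPM. Globin UMIs reached most nuclei of all kinds: between 57.4% and 100% of non-cycling nuclei had an Hbb-bs UMI. Near-identical globin copies (Hbb-bs and Hbb-bt, Hba-a1 and Hba-a2) can share reads, so their single levels are uncertain.

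**Figure D3:**
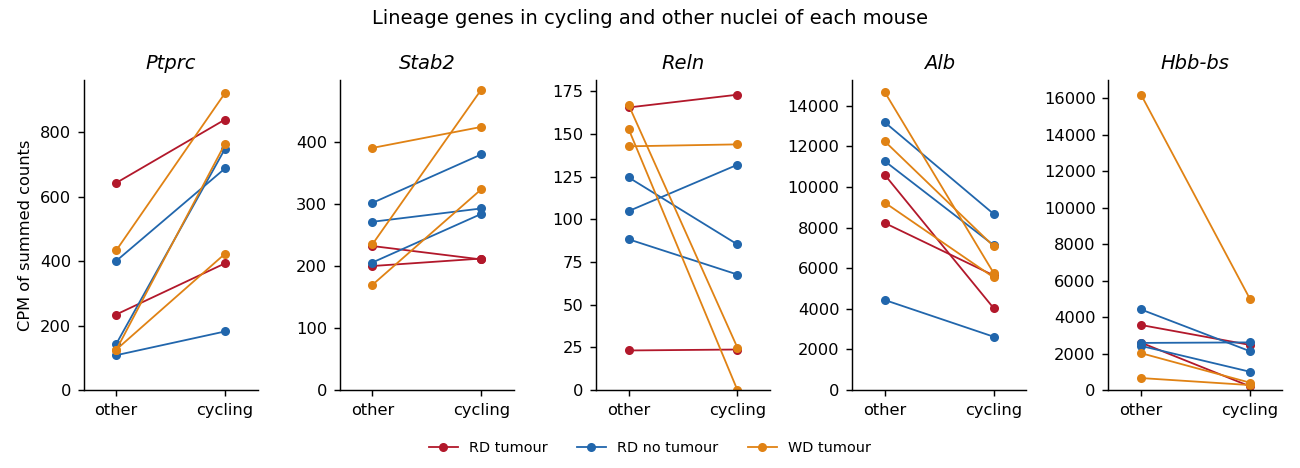
Level of 5 lineage genes in other (left) and cycling (right) nuclei, as CPM of counts summed per mouse; each line is 1 mouse, coloured by group. Ptprc is higher and Alb lower in the cycling nuclei of all 8 mice, and Hbb-bs is lower in 7 of 8.

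The share of cycling nuclei with a Ptprc UMI was 83.6% in RD tumour 1, 70.8% in RD tumour 2, 85.7%, 76.6% and 71.4% in the 3 mice kept on WD, and 65.4%, 52.4% and 55.0% in those without tumour. The groups did not overlap: tumour-bearing mice averaged 77.6 ± 6.82% (SD, n = 5) and the others 57.6 ± 6.90% (SD, n = 3), higher by 20.02 percentage points (two-sided exact permutation p = 0.0357, the smallest this design can give; 0.214 after adjustment over 6 share tests). The difference thus failed the correction. Thinned to 1000 UMIs, the shares were 54.4%, 40.9%, 57.1%, 50.6% and 42.9% with tumour and 42.5%, 38.1% and 16.2% without, and the groups overlapped. WD against chow differed by 12.5 points (exact permutation p = 0.179). Other nuclei held Ptprc UMIs in 14.4% to 56.9%, the most in RD tumour 1. Stab2 UMIs were found in 25.8% to 66.7% of cycling nuclei and in 16.3% to 25.5% of others. For Reln the shares were 0% to 62.5% and 3.45% to 15.7%. In RD no tumour 3 the Stab2 share, 57.5%, exceeded that of Ptprc, so 1 UMI does not by itself mark a leukocyte. Non-cycling nuclei with erythroid markers, a lineage that loses CD45 as it matures, held Ptprc UMIs in 64.1% in RD tumour 1 (median depth 1933 UMIs) and in 5.88% to 25.7% elsewhere (median depth 1061 to 6302 UMIs).

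Cycling nuclei were then sorted by 14 marker lists. A nucleus received the class whose genes stood furthest above the library's rate, with at least 2 UMIs from at least 2 genes and at least 4 times that rate; the 4 globin genes were left out, because their RNA was found in most nuclei of every mouse. In the 7 mice without RD tumour 1, nuclei with erythroid markers were the largest named class, 284 of 752 cycling nuclei (37.8%), followed by granulocyte markers with 85 (11.3%), monocyte or macrophage markers with 50, T or NK cell markers with 38, dendritic cell markers with 35 and Kupffer cell markers with 28. Endothelial markers marked 13, stellate or fibroblast markers 10 and cholangiocyte markers 0. No class was given to 180 (23.9%). The bar of 4 times the rate differs between lists, so these counts are not on 1 scale. In RD tumour 1, 1189 of 1411 (84.3%) had no class.

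**Figure D4:**
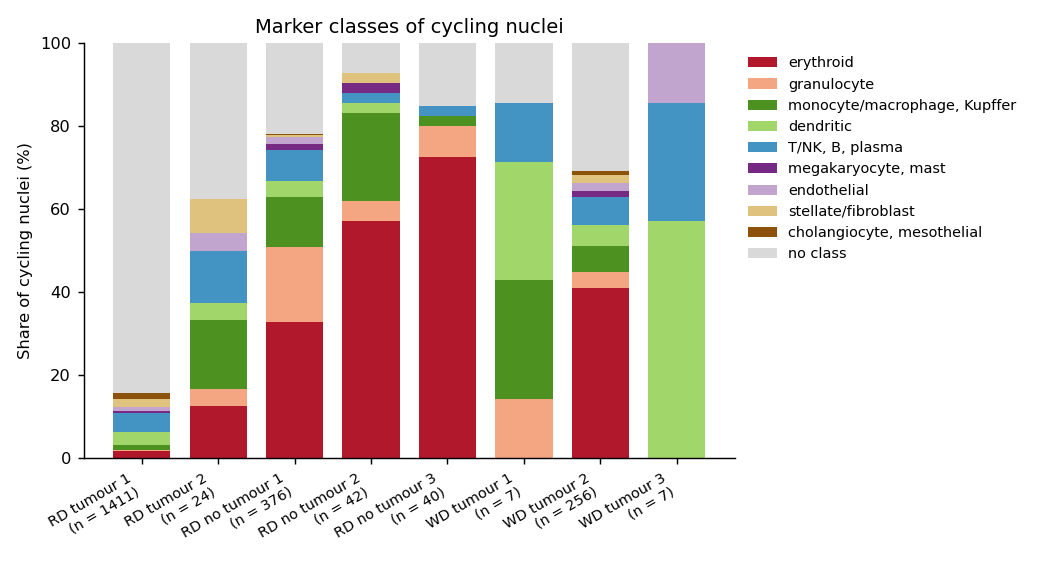
Marker class of the cycling nuclei of each mouse, as a share of all its cycling nuclei in percent, with the number of nuclei under each bar; classes are pooled as the legend gives them. Erythroid markers mark 32.7% to 72.5% in the livers without tumour and 41.0% in WD tumour 2, while 84.3% of RD tumour 1 has no class.

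Erythroid markers marked 123 of 376 cycling nuclei (32.7%) in RD no tumour 1, 24 of 42 (57.1%) in RD no tumour 2, 29 of 40 (72.5%) in RD no tumour 3 and 105 of 256 (41.0%) in WD tumour 2. They marked 3 of 24 in RD tumour 2, 25 of 1411 (1.77%) in RD tumour 1 and none of the 7 in WD tumour 1 or in WD tumour 3. Counted the other way, 42.9% of the 287 nuclei with erythroid markers in RD no tumour 1 were cycling (95% exact interval 37.1% to 48.8%), 25.3% of 95 in RD no tumour 2, 20.7% of 140 in RD no tumour 3 and 28.1% of 374 in WD tumour 2. In WD tumour 1 and WD tumour 3 each, 0 of 34 were cycling. A count of 0 read as at most 3 allows a share of up to 8.82%, and the 95% exact interval ends at 10.3%. The class depends on the globin genes: with them counted, the median over 8 mice of the erythroid share of cycling nuclei was 1.74% in place of 22.6%. Leaving out 1 mouse moved it as well: it was 32.7% without either RD tumour mouse, WD tumour 1 or WD tumour 3, and 12.5% without any 1 of the RD no tumour mice or WD tumour 2.

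These cycling erythroid nuclei held little globin RNA. The 4 globin genes made up 0.613% of their UMIs in RD no tumour 1, 0.744% in RD no tumour 2, 0.270% in RD no tumour 3 and 2.03% in WD tumour 2. In non-cycling nuclei with erythroid markers of the same mice they made up 16.6%, 6.32%, 8.41% and 25.7%. The 2 kinds did not overlap over these 4 mice. Hbb-bs stood at 3040 against 91280 CPM in RD no tumour 1, 4013 against 36500 in RD no tumour 2, 1432 against 44650 in RD no tumour 3 and 9998 against 124800 in WD tumour 2. That is a log2 difference of -4.91, -3.19, -4.96 and -3.64. Bpgm, which makes the 2,3-bisphosphoglycerate that tunes haemoglobin, went the same way: 24.5 against 487 CPM, 69.9 against 389, 27.3 against 254 and 41.0 against 632. Alas2, the first enzyme of haem synthesis in red cells, differed less, at 256 against 613 CPM in RD no tumour 1 and 222 against 719 in WD tumour 2. Median depth was 1929 against 1397 UMIs in RD no tumour 1, 2055 against 2286 in RD no tumour 2, 4336 against 3051 in RD no tumour 3 and 3089 against 1061 in WD tumour 2. Over all non-cycling nuclei of these mice, Hbb-bs stood at 4419, 2583, 2420 and 16198 CPM in the same order. The cycling erythroid nuclei lay below that level in every one of them but RD no tumour 2.

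Regulators of red cell precursors were higher in the cycling erythroid nuclei in part. Of 6 early genes 3 (Kit, Gfi1b and Tal1) were higher than in non-cycling erythroid nuclei in all 4 mice, while Gata2, Myb and Cd34 were higher in 1 of 4. Of 6 lineage regulators 4 (Gata1, Epor, Tfrc and Zfpm1) were higher in all 4 mice, Klf1 in 3 and Nfe2 in 2. These lists, and the genes named next, were chosen after earlier values were seen, and apart from Klf1 none of them was used for the class. Gata1, the master transcription factor of the lineage, was at 75.7 CPM against 40.8 in non-cycling erythroid nuclei of RD no tumour 1, 79.9 against 16.4 in RD no tumour 2, 47.7 against 5.04 in RD no tumour 3 and 71.7 against 19.3 in WD tumour 2. All non-cycling nuclei together held 0.253 to 2.35 CPM. Tfrc, the transferrin receptor that brings in iron, was at 735 against 357 CPM, 839 against 168, 361 against 111 and 558 against 241. Hemgn, a nuclear protein of blood precursors, was at 200.3 against 32.7 CPM, 300 against 8.19, 123 against 10.1 and 307 against 96.5. Slc6a20a, an amino acid transporter singled out after its values were seen, was at 122 against 13.6 CPM, 180 against 12.3, 54.6 against 2.52 and 113 against 14.5. The class's own genes were not all alike: Kel, the Kell blood group protein, was at 503 against 294 CPM in RD no tumour 1, 529 against 123 in RD no tumour 2, 300 against 42.8 in RD no tumour 3 and 599 against 273 in WD tumour 2. Slc4a1, the anion exchanger of the red cell membrane, was at 418 against 531, 739 against 352, 307 against 164 and 399 against 673 CPM, lower in the cycling nuclei of 2 mice and higher in those of the other 2.

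**Figure D5:**
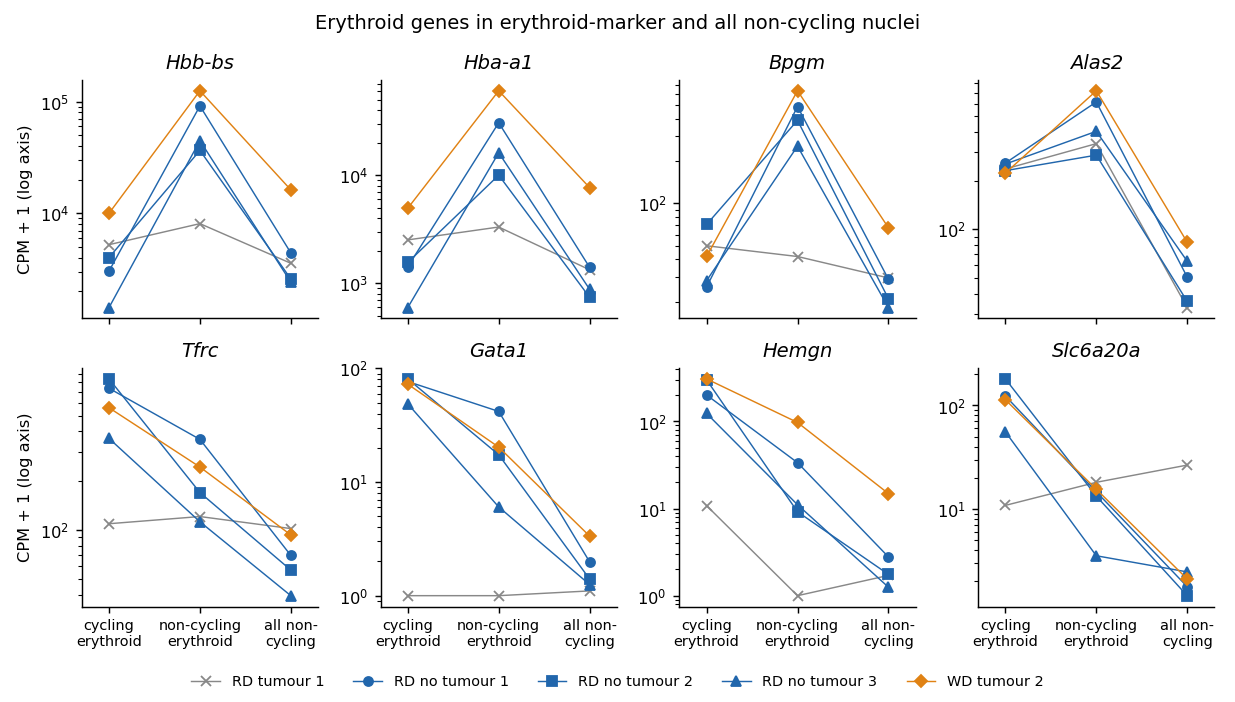
Level of 8 genes in cycling nuclei with erythroid markers, non-cycling nuclei with erythroid markers and all non-cycling nuclei of the mouse, as CPM + 1 on log axes; each line is 1 mouse with at least 20 cycling erythroid nuclei. In the 3 RD no tumour mice and WD tumour 2, Hbb-bs, Hba-a1 and Bpgm are lower, and Tfrc, Gata1, Hemgn and Slc6a20a higher, in cycling than in non-cycling erythroid nuclei; RD tumour 1 (grey) does not follow.

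In RD tumour 1 the 25 cycling nuclei with erythroid markers held few or no UMIs of most of these genes. Gata1 and Klf1, a second erythroid transcription factor, had none, and Hemgn, Kel and Slc6a20a had 1 each (9.80 CPM). Tfrc stood at 108 CPM, close to the 101 CPM of all non-cycling nuclei of this library. Their class is therefore uncertain, and 24 of these 25 nuclei held a Ptprc UMI. In RD no tumour 1 the figure was 48 of 123, and in RD no tumour 2 it was 5 of 24.

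Promoters of a pair of erythroid genes are shown, because these genes mark the largest named class: the 150 bases before the RefSeq start of Kel, at chr6:41704326-41704475 (minus strand), and of Rhag, which encodes a membrane channel of the Rh complex, at chr17:40810999-40811148 (plus strand), in GRCm38.p6. Capitals mark the GATA letters AGATAA or TGATAA, or their reverse complements TTATCT and TTATCA.
Kel: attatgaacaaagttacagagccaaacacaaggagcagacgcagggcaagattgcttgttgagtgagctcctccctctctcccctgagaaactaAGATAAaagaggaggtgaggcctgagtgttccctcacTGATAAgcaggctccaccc
Rhag: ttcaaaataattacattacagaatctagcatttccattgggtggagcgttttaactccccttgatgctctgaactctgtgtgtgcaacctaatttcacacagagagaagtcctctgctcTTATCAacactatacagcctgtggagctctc
Of all 32851 windows of this length, 9.65% held at least 1 of these 4 strings. The set of letters was chosen with these promoters in view.

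As a share of all UMIs, spindle and licensing genes stood higher in cycling erythroid nuclei than in the other cycling nuclei of the same mouse. Summed spindle genes stood at 1542 against 967 CPM in RD no tumour 1, 1897 against 1208 in RD no tumour 2, 1002 against 133 in RD no tumour 3 and 1744 against 547 in WD tumour 2. Licensing genes stood at 1035 against 512, 1118 against 614, 552 against 135 and 926 against 427 CPM. Both lists were higher in the erythroid nuclei of all 4 mice. In RD tumour 1 the values were close, at 716 against 552 CPM for spindle genes. The erythroid nuclei were shallower, with a median of 1929 against 2818 UMIs in RD no tumour 1, 2055 against 3937 in RD no tumour 2, 4336 against 19730 in RD no tumour 3 and 3089 against 5996 in WD tumour 2. Counted per nucleus, the difference was smaller, absent or the other way: spindle genes gave 5.63 against 4.996 UMIs, 7.92 against 7, 5.07 against 5 and 9.73 against 6.78, and licensing genes 3.78 against 2.64, 4.67 against 3.56, 2.79 against 5.09 and 5.17 against 5.29. As a share of UMIs, DNA synthesis, replication repair, mitotic kinase, kinetochore and condensin genes were also higher in all 4 mice. Other genes were less even. Cytokinesis genes were close in RD no tumour 1 (441 against 419 CPM) and RD no tumour 2 (559 against 537 CPM). They were higher in RD no tumour 3 (314 against 26.5 CPM) and WD tumour 2 (546 against 228 CPM). Kif23, a motor of the midbody, was at 183 against 193 CPM in RD no tumour 1 and 110 against 441 in RD no tumour 2. It was at 61.4 against 16.9 CPM in RD no tumour 3 and 140 against 87.6 in WD tumour 2. Kif15 was at 150 against 269 CPM in RD no tumour 2 and higher in the erythroid nuclei of the other mice.

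Granulocyte markers were frequent in 1 liver. In RD no tumour 1 they marked 68 of 376 cycling nuclei (18.1%), and 10.0% of the 679 nuclei with granulocyte markers were cycling. The other mice had at most 10 such nuclei, those of WD tumour 2. Mpo, the myeloperoxidase of primary granules made by promyelocytes, was at 628 CPM in the cycling and 201 CPM in the non-cycling nuclei of this class in RD no tumour 1, against 17.7 CPM in all non-cycling nuclei. Elane, neutrophil elastase, was at 329 and 158 CPM, and Myb, a transcription factor of progenitors that did not define the class, at 125 and 45.7. Mmp8, a collagenase of later granules, went the other way, at 44.8 and 486 CPM, as did Retnlg at 120 and 645. Ltf and Ngp, proteins of secondary granules, were at 976 and 1255 CPM and at 1704 and 1386. These values come from 1 mouse, with no replicate.

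Other blood lineages gave smaller numbers. Monocyte or macrophage markers marked 36 cycling nuclei in RD no tumour 1, or 7.19% of the 501 nuclei of that class, and 8 of 337 in WD tumour 2. Of 12 monocyte and macrophage genes 2 were counted as higher and 2 as lower in cycling nuclei (median 0.43). F13a1, a coagulation factor of monocytes, was higher in cycling nuclei in 7 of 8 mice (median 2.01), at 365 against 40.7 CPM in RD no tumour 1, and Chil3, a chitinase-like protein, in 6 of 8 (median 1.66). Mmp12, a macrophage elastase, was lower in 8 of 8 mice (median -1.22, from 14 UMIs in all cycling nuclei), and Trem2, a receptor of lipid-handling macrophages, was higher in 2 of 8 (median -1.11). Kupffer cell markers, of the liver's resident macrophages, marked 8 of 42 cycling nuclei in RD no tumour 2 and 10 of 376 in RD no tumour 1. Dendritic cell markers marked 4 of the 7 cycling nuclei of WD tumour 3 and 13 of 256 in WD tumour 2. Flt3, the growth factor receptor of dendritic cell precursors, was higher in 7 of 8 mice (median 2.03) but rested on 43 UMIs in all. T or NK cell markers marked 17 cycling nuclei in RD no tumour 1 (3.66% of that class) and 14 in WD tumour 2 (7.25%).

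Liver's structural cells were rarely among them. Outside RD tumour 1, 0.268% of 4852 nuclei with endothelial markers, 0.210% of 4760 with stellate or fibroblast markers and 0 of 1419 with cholangiocyte markers were cycling, against 27.2% of 1046 with erythroid markers. Mesothelial markers marked 3 cycling nuclei of 84. A nucleus counts here once, under its leading class: 43 cycling nuclei met the endothelial list, 30 the stellate or fibroblast list and 3 the cholangiocyte list when every list met was counted. In RD tumour 1 these shares were 2.91% of 412, 4.63% of 627 and 6.83% of 293, while 7.06% of its nuclei without a class were cycling. Hepatocyte genes were in no class list. In RD no tumour 1 the 82 cycling nuclei without a class held Alb at 2187 CPM, against 4511 CPM in non-cycling nuclei without a class, and in WD tumour 2 the 79 such nuclei held it at 4782 against 13644 CPM.

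Only 1 contrast of genes between groups could be fitted within cycling nuclei, since WD tumour 1 and WD tumour 3 had 7 each and at least 20 per mouse were needed. RD tumour (2 mice) was compared with RD no tumour (3 mice) with edgeR's quasi-likelihood test. WD tumour 2 was in the model as the only mouse of its group, so it gave no measure of the spread. With it 13672 genes passed the low-count filter, and without it 9691. Of 13672 genes, 0 were called higher (0%) and 0 lower (0%) at an adjusted p under 0.05, the smallest adjusted p being 0.591, and 490 had an unadjusted p under 0.05. DESeq2 called 36 of 13672 genes, of which 4 were higher and 32 lower with tumour. Of the 36 calls, 11 were genes of the erythroid lists, which overlap. Tested were 15 erythroid marker genes and 5 early, 6 regulator and 7 late genes, and some lists were added after values were seen. In simulated data for this contrast, with 13672 genes of which 200 were changed, edgeR recovered 63% of 16-fold and 8% of 4-fold changes, with 11 false calls over both sizes. In sums over nuclei, fewer nuclei of a class and less RNA per nucleus cannot be told apart.

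Car2 and Hemgn, both expressed in red cell precursors, were among the genes lower with tumour that had the smallest p. Car2, carbonic anhydrase 2, was at 6.58 and 8.15 CPM with tumour and at 176, 318 and 105 CPM without, a log2 difference of -4.68 ± 0.682 (SE; edgeR adjusted p = 0.591). Hemgn was at 0.212 and 2.04 against 56.9, 147 and 41.0 CPM. For both genes WD tumour 2 lay within the RD no tumour range, with 97.6 CPM of Hemgn. Both genes were chosen by their small p, so the gap between the groups follows from that choice. DESeq2 gave Car2 an adjusted p of 2.39e-07 and Hemgn one of 1.07e-05, so these calls depend on the tool. All 15 erythroid marker genes were lower with tumour, by a median of -4.49 against 0.04 over all genes, and 0 were called.

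On the other side stood Chka, choline kinase alpha, at 523 and 517 CPM with tumour and 97.3, 103 and 103 without (log2 difference 2.40 ± 0.455, SE; edgeR adjusted p = 0.851), Cry1, a repressor of the circadian clock, at 64.7 and 106 against 21.1, 19.6 and 16.04, and Gpnmb, a glycoprotein of lipid-laden macrophages, at 49.2 and 20.4 against 2.85, 4.89 and 1.78. Ren1, renin, was at 63.6 and 187 against 18.8, 14.7 and 5.35 CPM; 129 strains carry a second, near-identical renin gene, so its counts are uncertain. None of these passed the edgeR test; DESeq2 gave Chka an adjusted p of 0.00722 and Ren1 one of 0.0291. The 6 rule genes had a median difference of -0.37 and the 17 spindle genes one of -1.21, 1 of the 17 being higher with tumour.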

How the data were processed

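The authors deposited raw UMI counts per gene and barcode for each liver, and the file headers name Cell Ranger 7.0.0; the build was mm10 per the submitters' processing notes. Intron counting and the rule for keeping barcodes are not given in the sources used here. Of 80575 barcodes, 1129 with under 300 genes were dropped. Doublets were called with Scrublet (scanpy 1.11.5; the highest scores up to 0.8% per 1000 barcodes) and kept. The replicate was the mouse; p-values measure the spread between mice. Shares were compared with exact permutation tests (scipy 1.17.1), and summed counts with edgeR 4.0.16 (TMM, filterByExpr, Benjamini-Hochberg adjustment at 0.05), tested on simulated data, with DESeq2 1.42.0 as an alternative. Intervals are 95% Clopper-Pearson; a count of 0 was read as at most 3 counts.

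The members, gene lists and tests were chosen with earlier results of these data known. Named genes were the 6 rule and 5 lineage genes, up to 4 with the largest and 1 with the smallest median difference per list, the 15 leading genes with at least 50 UMIs, and for the contrast between groups the 4 with the smallest p each way, of which some are not reported here; genes and added lists of the erythroid and granulocyte nuclei were chosen after their values were seen. Gene positions are from GENCODE M21, in which 32235 of 32285 gene IDs were found, and promoters from RefSeq. Alternatives tried were other thresholds of the rule, depths, doublets left out, each mouse left out, no low-count filter, and a replicate block. Same-numbered mice did not deviate together (correlations from -0.661 to 0.497), so the numbers do not pair mice.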

Additional observations from a re-analysis of the deposited data

How the results depend on the processing

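The share of cycling nuclei with tumour against none turned from -0.85 to 0.13 (log2) when measured as UMIs of the 6 genes per 1000000 UMIs, and leaving out each mouse in turn gave -1.77 to 0.0877, the latter without RD no tumour 1. WD against chow ranged from -3.57 to -0.81 with each mouse left out; at 1000 UMIs the ranges were -2.20 to -0.02 for tumour and -3.15 to 0.0903 for diet, the latter without WD tumour 1. No alternative brought a share test past its adjusted threshold. Thinning to 500 UMIs gave no log2 value because 2 mice were at 0. The Ptprc difference ranged from 16.9 to 23.9 points. The contrast of genes gave 0 calls with edgeR as reported, 36 with DESeq2, 100 without the low-count filter and 73 with the replicate block, which gave an exact p of 0.0556 for the Ptprc share and left the other share tests above 0.05. The replicate numbers pair no animals. Leaving out each mouse gave 0 calls every time. Car2 and Hemgn passed under each of these 3 settings, at log2 differences within -7.23 to -4.58. The cause was not tested. Both contrasts with WD tumour were not run, for lack of cycling nuclei. Shares that rest on 7 nuclei, and a design of 3 against 5 mice, limit precision.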

Other observations

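Nuclei that met several marker lists were more frequent among cycling nuclei in most mice: 101 of 376 (26.9%) in RD no tumour 1 against 9.74% of its other nuclei, 60 of 256 (23.4%) against 8.59% in WD tumour 2, and 16 of 42 (38.1%) against 10.7% in RD no tumour 2. RD tumour 1 went the other way, with 12 of 1411 (0.850%) against 1.14%. In WD tumour 2, erythroid markers were found together with endothelial markers in 13 cycling nuclei and with T or NK cell markers in 12. In RD no tumour 1, monocyte and granulocyte markers met in 36. Median depth of cycling nuclei without a class was 43627 UMIs in RD no tumour 3 (6 nuclei) and 31069 UMIs in RD tumour 2 (9 nuclei), against 2455 in RD tumour 1. In RD no tumour 3, the 11 cycling nuclei without erythroid markers held Top2a at 48.3 CPM and the 29 with them at 409 CPM.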
